A study of Mus musculus with 2 samples.

Results

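The mouse alpha-globin locus was examined as the 5 alpha-like globin genes Hba-x, Hba-a1, Hba-a2, Hbq1b and Hbq1a together with the 5 genes that flank them on 1 side, Il9r, Snrnp25, Rhbdf1, Mpg and Nprl3. These genes were taken by name and position, not by level, and they were 10 of the 43346 gene entries measured. RNA came from G1E, an immortalised mouse cell line labelled as a Gata1- erythroid progenitor of male sex, and no treatment is given in the labels. Polyadenylated RNA was sequenced from both ends in 2 libraries, replicate 1 and replicate 2, which formed 1 group. No other genotype, stage or treatment was analysed here, so the values are levels, shares within a gene and differences between the libraries. Replicate 1 held 61982634 expected counts and replicate 2 held 80658648. An expected count is an estimated number of read pairs in which a pair that matches several transcripts is divided between them. Levels are in TPM, a transcript abundance in which counts are divided by an estimated transcript length and every library is scaled to the same total. Although labelled as biological replicates, the libraries cite a shared cell sample, so p-values and the spread, written as SD with n = 2, may measure only technical differences.

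The erythroid label of the line was checked with Gata2, Klf1, Tal1, Epor and Zfpm1, and all were at 1 TPM or more in both libraries. Their means ran from 109.7 TPM for Epor, the erythropoietin receptor, to 1195 TPM for Zfpm1, which encodes a GATA cofactor. Since 40.0% of protein-coding genes reached 1 TPM in both libraries, and no other lineage was compared, this check was weak. Gata1 RNA was itself present in these libraries labelled Gata1-, at 48.0 TPM in replicate 1 and 46.6 TPM in replicate 2. Summed counts do not show which of its exons were read, so the Gata1- part of the label was not checked by them.

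Haemoglobin is a tetramer of alpha-like and beta-like chains. In the mouse alpha cluster Hba-x encodes the embryonic zeta chain, Hba-a1 and Hba-a2 encode the same adult alpha chain, and Hbq1a and Hbq1b encode theta chains whose function is not established. The enhancers that switch the cluster on in red cell precursors lie upstream, mostly within introns of Nprl3, and are bound by GATA1, KLF1 and the TAL1 complex. Nprl3 and most genes beyond it are used in many tissues and have unrelated functions, and Snrnp25, Rhbdf1, Mpg and Nprl3 also neighbour the human alpha-globin genes.

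All 10 genes lie on chromosome 11 of GRCm38 (mm10) within 113333 bases. In order they are Il9r (ENSMUSG00000020279, 32187541 to 32200279, minus strand), Snrnp25 (ENSMUSG00000040767, 32205415 to 32208984, plus), Rhbdf1 (ENSMUSG00000020282, 32209585 to 32222300, minus), Nprl3 (ENSMUSG00000020289, 32225628 to 32267707, minus) and Mpg (ENSMUSG00000020287, 32226505 to 32232700, plus). The globin genes follow on the plus strand, namely Hba-x (ENSMUSG00000055609, 32276400 to 32278116), Hba-a1 (ENSMUSG00000069919, 32283511 to 32284465), Hbq1b (ENSMUSG00000073063, 32286965 to 32287784), Hba-a2 (ENSMUSG00000069917, 32296489 to 32297298) and Hbq1a (ENSMUSG00000020295, 32300069 to 32300873). Mpg lies wholly inside the span of Nprl3 on the other strand, and the closest neighbours that do not overlap are Snrnp25 and Rhbdf1, 600 bases apart.

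The adult copies cannot be told apart over most of their sequence, which bears on every value given for either of them. Their coding sequences of 426 bases differ at 1 base, written C381T with the Hba-a1 base first and positions counted from 1 at the start codon. The difference is in codon 127, in exon 3, and both codons encode the same amino acid. The 30 coding bases around it are shown because they hold the only coding difference between the copies, in capitals, on the plus strand of GRCm38, at chr11:32284328-32284357 for Hba-a1 and chr11:32297145-32297174 for Hba-a2.
Hba-a1: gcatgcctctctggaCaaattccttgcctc
Hba-a2: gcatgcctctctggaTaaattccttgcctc

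Each copy also has an annotated transcript with a retained intron, named Hba-a1-202 and Hba-a2-202. These transcripts lack exon 1 and begin with the last 113 bases of intron 1, and the pair differ from each other at 1 base. The end of the intron and the start of exon 2 in Hba-a1-202, at chr11:32283894-32283943, are shown because most Hba-a1 counts were placed on that transcript, with exon 2 in capitals.
Hba-a1-202: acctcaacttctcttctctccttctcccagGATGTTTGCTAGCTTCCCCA

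The promoters of the cluster differ in the short motifs they hold. RefSeq promoters on GRCm38.p6, from 250 bases before to 50 after each start, were at hand for 9 of the 10 genes, all but Rhbdf1. Motifs known from globin promoters were searched on both strands, and in the promoters of Hba-a1, Hba-a2 and Hba-x no match overlapped another. Among all 32851 promoters, TATAA was in 24.9%, CCAAT in 37.4%, CACCC in 57.5% and GATAA, a core to which GATA factors bind, in 25.4%, and 1.51% held all of them. The promoters of Hba-a1 and Hba-a2 each held all of them and had no difference over the 297 bases they share in register. Hba-x held all of them but CCAAT. Hbq1b held a match to CCAAT and, on the minus strand, to TATAA. Hbq1a held a match to CCAAT only. The neighbours held such motifs too. Il9r held 3 matches to GATAA and 2 to CACCC, where each adult globin gene held 1 and 2. Snrnp25 held 3 matches to CCAAT and 1 to GATAA, Mpg 2 to CCAAT and 1 to CACCC, and Nprl3 1 to TATAA. The promoters of Snrnp25, Mpg and Nprl3 were rich in CpG dinucleotides, with 22, 22 and 20 in 300 bases, against 4 for each adult globin gene, 2 for Hba-x, 13 for Hbq1b, 8 for Hbq1a, 5 for Il9r and a median of 7 over all promoters. A match describes letters only and is not a binding site. A further CACCC of Hba-x, at -198 from its start, is not shown. Pieces that hold the other matches in Hba-a2, Hba-x and Hbq1b are printed with the matches in capitals, at chr11:32296297-32296488 for Hba-a2, chr11:32276485-32276514 and chr11:32276559-32276588 for Hba-x, and chr11:32286799-32286963 for Hbq1b, all on the plus strand.
Hba-a2: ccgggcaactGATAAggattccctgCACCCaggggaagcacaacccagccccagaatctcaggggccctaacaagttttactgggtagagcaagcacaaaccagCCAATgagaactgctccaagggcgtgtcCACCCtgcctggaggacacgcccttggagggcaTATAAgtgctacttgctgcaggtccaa
Hba-x, distal: ctggctctGATAAcaggctcCACCCtgcaa
Hba-x, proximal: ctgaccatgtgtaTATAAaggagacactgg
Hbq1b: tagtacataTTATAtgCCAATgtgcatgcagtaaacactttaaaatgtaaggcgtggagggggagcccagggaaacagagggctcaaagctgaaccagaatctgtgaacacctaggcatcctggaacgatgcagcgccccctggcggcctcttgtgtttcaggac

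The locus held genes at very different levels side by side. Of the 10 genes, 6 were at 1 TPM or more in both libraries, namely Hba-a1, Hba-a2, Nprl3, Snrnp25, Mpg and Il9r, against 40.0% of protein-coding genes (8581 of 21474) and 21.1% of all gene entries. The median level of the 10 genes was 7.86 TPM in replicate 1 and 9.18 TPM in replicate 2. The median over all protein-coding genes was 0.03 TPM in both libraries, and over protein-coding genes at 1 TPM or more in both it was 17.0 TPM in replicate 1 and 19.0 TPM in replicate 2. Without the adult globins the median of the other 8 genes was 2.39 TPM as a mean of the libraries. Both libraries put the genes in the same order of level, which was Hba-a1, Hba-a2, Nprl3, Snrnp25, Mpg, Il9r, Rhbdf1, Hbq1b, Hba-x and Hbq1a, with Hba-x and Hbq1a tied at 0 in replicate 1.

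Not every step in that order exceeded its error. The means of Rhbdf1 and Hbq1b differed by less than the SD of Rhbdf1. For Rhbdf1 and Il9r the deposited lower and upper bounds of TPM, whose level is not given in the sources used here, overlapped in replicate 1. The other steps from Hba-a1 down to Il9r exceeded the SD of either gene, on the scale of deposited TPM.

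**Figure D1:**
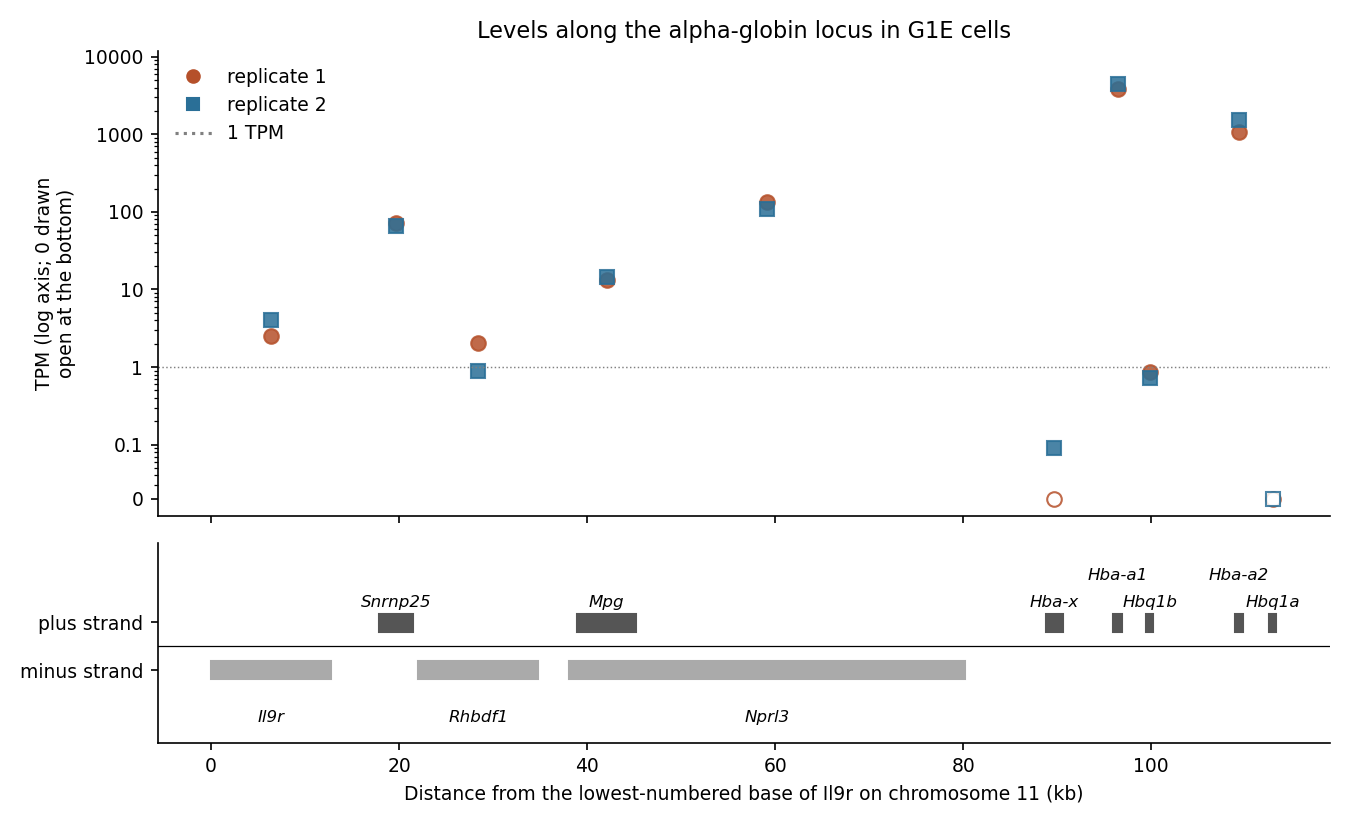
Levels of the 10 genes in TPM on a log axis (replicate 1 as circles, replicate 2 as squares, 0 as open symbols at the bottom, the dotted line at 1 TPM) above a map of the genes by strand, in kb from the lowest-numbered base of Il9r. Hba-a1 and Hba-a2 stood at 1070 TPM or more in both libraries, while Hba-x, Hbq1b and Hbq1a beside them stayed below 1 TPM.

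The adult alpha-globin genes were among the most abundant RNAs of these cells. Hba-a1 was at 3881 TPM in replicate 1 and 4446 TPM in replicate 2, from 76620 and 109435 expected counts. Hba-a2 was at 1070 TPM in replicate 1 and 1523 TPM in replicate 2, from 24503 and 43759 counts. By mean TPM Hba-a1 ranked 32 and Hba-a2 ranked 110 among all genes. These are bulk libraries, so fewer cells with the RNA and less RNA per cell cannot be told apart. Summed, the firmer value for copies that share most of their sequence, they were at 4951 TPM in replicate 1 and 5969 TPM in replicate 2, which was 0.495% and 0.597% of all TPM. They made up 95.7% of the TPM of the 10 genes in replicate 1 and 96.8% in replicate 2.

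As assigned, the division between the copies leaned to Hba-a1 in both libraries. Hba-a1 took 78.4% of their summed TPM in replicate 1 and 74.5% in replicate 2, a mean of 76.4% ± 2.76 (SD, n = 2). In TPM it exceeded Hba-a2 3.63-fold in replicate 1 and 2.92-fold in replicate 2, and 3.13-fold and 2.50-fold in expected counts. The deposited posterior SD of each copy's count, computed within the annotated transcripts, was 350.7 in replicate 1 and 400.0 in replicate 2. In windows of 50 bases, 395 of the 445 windows of Hba-a1-202 (88.8%) and 439 of the 505 windows of Hba-a2-201 (86.9%) occur in the other copy as well. The 50 remaining windows of Hba-a1-202 are those that span the base shown above. None of the windows of either gene occurs in a gene outside the locus. The mean fragment length implied by the deposited lengths was 145 bases in replicate 1 and 149 bases in replicate 2, longer than a window. The shares of windows therefore describe the sequences and are not the share of read pairs that fit both copies.

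The copies were assigned to different kinds of transcript. The retained-intron transcript Hba-a1-202, of 494 bases, took 98.3% of the TPM of Hba-a1 in replicate 1 and 99.2% in replicate 2, with 74623 and 107992 counts. The coding transcript Hba-a1-201, of 699 bases, had 1997 counts in replicate 1 and 1443 in replicate 2. For Hba-a2 the coding transcript Hba-a2-201, of 554 bases, took 100% in both libraries, and its own retained-intron transcript was at 0 in both. So the near-identical retained-intron transcripts of the copies held nearly all counts of the first and none of the second. Nearly all Hba-a1 counts were thus on a transcript without exon 1, and all Hba-a2 counts on one with it. The division between the genes was therefore also one between unlike transcripts, and whether the genes themselves differ in level was not tested.

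The annotated ends of the coding transcripts also differ. Hba-a1-201 starts 161 bases further upstream than the position matching the start of Hba-a2-201, and all 161 windows particular to Hba-a1-201 begin in that stretch. The stretch overlaps the RefSeq promoter of Hba-a1 and holds its TATAA at -27, CACCC at -60 and CCAAT at -88. The length of Hba-a1-201, the first-numbered transcript used further on, therefore includes these promoter bases. Hba-a2-201 runs 16 bases further at its 3′ end than Hba-a1-201 and 43 bases further than Hba-a1-202. Of the 445 windows of Hba-a1-202, 334 also occur in Hba-a1-201, and each of the other 111 includes intron bases. Counts per transcript do not show which bases were read, so whether the 113 intron bases were covered was not tested.

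**Figure D2:**
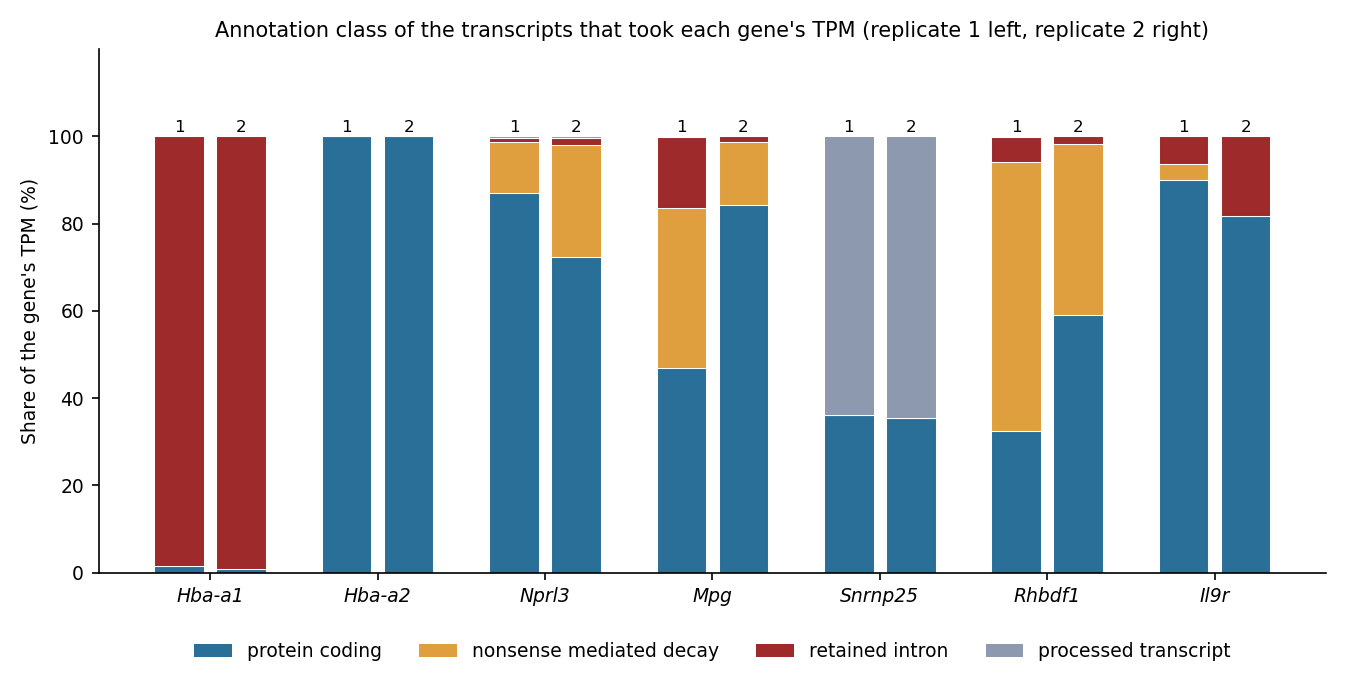
Share of each gene's deposited TPM (%) taken by transcripts of each annotation class, with replicate 1 as the left bar and replicate 2 as the right bar of each gene. Hba-a1 was almost entirely on a retained-intron transcript and Hba-a2 entirely on a coding one, and for Mpg, Rhbdf1 and Nprl3 the shares in the 2 libraries were unequal, which was not tested.

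Hba-x, the embryonic zeta-globin gene, was barely detectable beside them. It had 0 counts in replicate 1 and 4 in replicate 2, where it was listed at 0.09 TPM. As a share of the counts on Hba-x, Hba-a1 and Hba-a2 this was 0 of 101123 in replicate 1, which allows up to 0.00297%, and 4 of 153198 in replicate 2, or 0.00261% (exact 95% Clopper-Pearson interval 0.000711 to 0.00669%). Such intervals and limits describe counting error alone, because several read pairs can come from the same molecule. Hba-x shares 64.8% of its coding bases with Hba-a1, and none of the 752 windows of 50 bases in Hba-x-201 occurs in another gene.

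The theta genes were low or silent. Hbq1b was at 0.86 TPM in replicate 1 and 0.72 TPM in replicate 2, from 23 and 21 counts. Hbq1a had 0 counts in both libraries, which allows up to 0.0484 CPM, counts scaled to the same total without regard to length, in replicate 1 and 0.0372 CPM in replicate 2. Their coding sequences are 93.8% identical, and 204 of the 513 windows of Hbq1b-201 occur in Hbq1a, while 351 of the 555 windows of Hbq1a-201 occur nowhere else. The retained-intron transcript Hbq1b-202 took 49.1% of the TPM of Hbq1b in replicate 1 and 0% in replicate 2, on 12.8 and 0 counts.

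The beta-like globins are on another chromosome and pair with the alpha chain in haemoglobin. Hbb-bs and Hbb-bt, the adult beta genes, summed to 187.1 TPM in replicate 1 and 231.1 TPM in replicate 2. In deposited TPM adult alpha RNA thus exceeded adult beta RNA 26.5-fold and 25.8-fold. The size of this ratio depends on the length used for Hba-a1. With that of its first-numbered transcript, described further on, Hba-a1 was lower, at 2472 in replicate 1 and 2807 in replicate 2. Hba-ps4, an alpha-globin pseudogene on chromosome 17, was at 0 in both libraries.

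In deposited TPM Nprl3 was the highest of the non-globin genes of the locus, and with the other lengths described further on it was below Snrnp25. It encodes a subunit of GATOR1, the complex that holds back the growth kinase mTORC1 when amino acids are scarce. Nprl3 was at 132.8 TPM in replicate 1 and 109.6 TPM in replicate 2, from 4695 and 6154 counts, at percentile 87.5 of genes at 1 TPM or more in both. Adult alpha-globin exceeded it 37.3-fold in replicate 1 and 54.5-fold in replicate 2. On the log2 scale this ratio averaged 5.49 ± 0.39 (SD, n = 2).

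Most of the TPM of Nprl3 came from a short transcript at its 5′ end. Nprl3-208 has 6 exons and 623 bases and is tagged in the annotation as incomplete at its 3′ end. It took 85.5% of the TPM in replicate 1 and 69.8% in replicate 2, but 64.7% and 41.8% of the counts. Nprl3-212, of 1602 bases and annotated as a target of nonsense-mediated decay, took 11.4% of the TPM in replicate 1 and 25.2% in replicate 2, with 1235 and 2837 counts. By counts Nprl3-208 led in replicate 1, whereas Nprl3-212 led in replicate 2 with 46.1%. The full-length coding transcript Nprl3-201, of 2865 bases and 13 exons, took 1.62% in replicate 1 and 2.61% in replicate 2. Nprl3-208 shares 584 exon bases with Nprl3-201 and 379 with Nprl3-212, 84.8% of its 50-base windows occur in another Nprl3 transcript, and Nprl3-212 has no window of its own. The deposited posterior SD, computed within the annotated transcripts, was 40.3 counts in replicate 1 and 59.5 in replicate 2 for Nprl3-208, and 45.1 and 69.0 counts for Nprl3-212.

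Transcripts that start inside the gene were assigned few counts. Since introns of Nprl3 hold the enhancers, and active enhancers can be transcribed, the annotated starts were compared. Of the 16 transcripts of Nprl3, 9 start within 300 bases of the 5′ end and 7 start further inside. The 7 held 35 of 4695 counts in replicate 1, or 0.745% (exact 95% interval 0.520 to 1.04%), and 70 of 6154 in replicate 2, or 1.14% (0.888 to 1.43%). Most of these were on Nprl3-215, a retained-intron transcript that starts 33306 bases into the gene, with 26.9 counts in replicate 1 and 53.5 in replicate 2. Nprl3-203 and Nprl3-214, which start 11294 and 13648 bases into the gene, were at 0 in both libraries. Of their 50-base windows 90.8% and 83.9% occur in another Nprl3 transcript. Their read pairs could thus be placed on other transcripts, and the exact intervals do not cover errors of assignment. Polyadenylated libraries counted over annotated transcripts do not measure RNA without a poly(A) tail or outside those annotations.

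**Figure D3:**
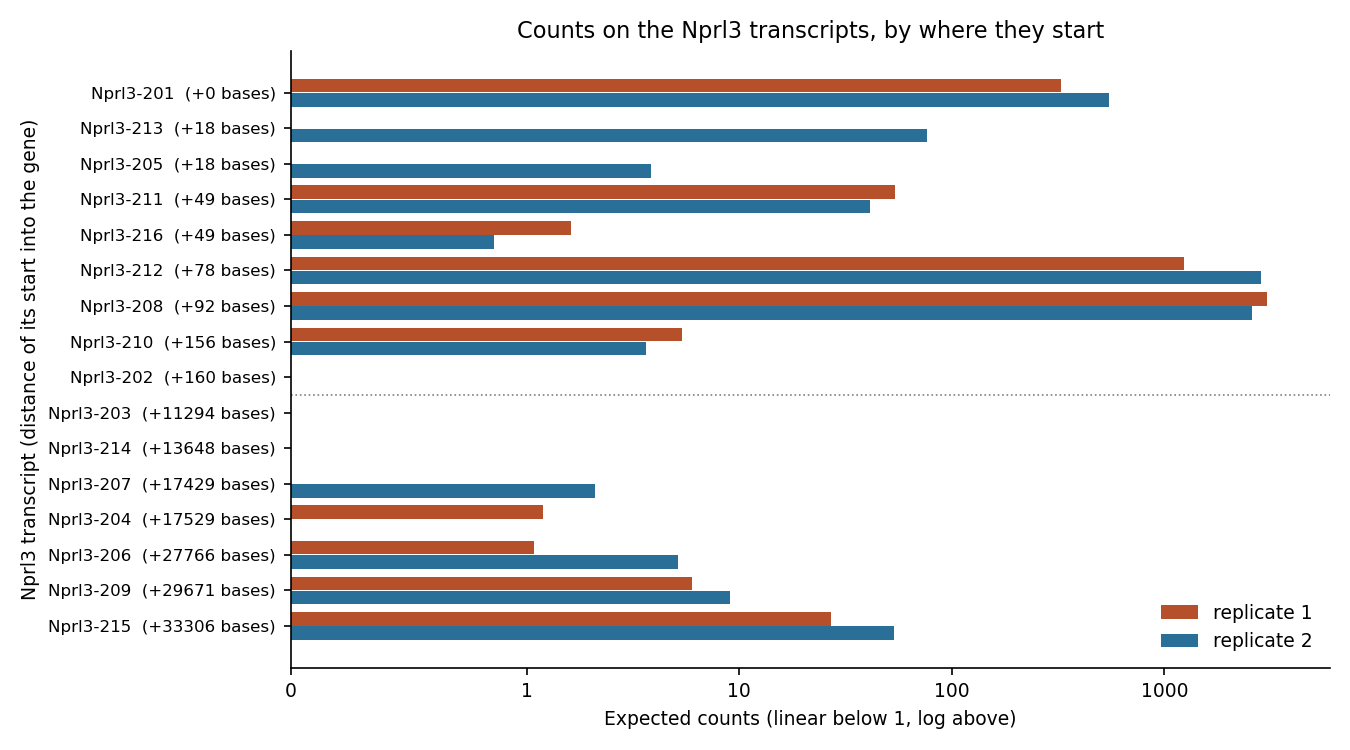
Expected counts on each of the 16 Nprl3 transcripts (axis linear below 1 and log above), ordered by the distance of their start into the gene, with replicate 1 above replicate 2 and transcripts that start inside the gene under the dotted line. Nprl3-208, Nprl3-212 and Nprl3-201 held most counts, and none of the transcripts under the line exceeded 54 counts.

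Mpg encodes the glycosylase that removes alkylated bases from DNA at the start of base excision repair. It was at 13.2 TPM in replicate 1 and 14.3 TPM in replicate 2, from 982 and 1552 counts, at percentile 44.6. Nprl3, within whose span it lies, was 10.1-fold higher in replicate 1 and 7.67-fold higher in replicate 2 in deposited TPM. With the length of all annotated exons the ratio was 2.37 in replicate 1 and 1.96 in replicate 2, and with that of the first-numbered transcripts 2.80 and 2.32. The exons of the genes overlap over 1340 bases, of which 738 are shared by Mpg-201 and Nprl3-201 and none by Mpg-201 and either Nprl3-208 or Nprl3-212. Whether counting used strand is not given in the sources used here, so reads from the overlap cannot be assigned with certainty.

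The transcripts of Mpg were divided differently in the 2 libraries. The coding transcript Mpg-201 took 47.0% of the TPM in replicate 1 and 84.4% in replicate 2. Mpg-203, annotated as a target of nonsense-mediated decay, took 35.4% in replicate 1 and 13.5% in replicate 2, and the retained-intron transcript Mpg-204 took 16.4% and 1.30%. Transcript shares were not tested.

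Snrnp25 encodes a protein of the U11/U12 particle, which recognises the rare introns removed by the minor spliceosome. It was at 72.1 TPM in replicate 1 and 65.7 TPM in replicate 2, from 1531 and 1789 counts, at percentile 79.4. Its leading transcript in TPM was Snrnp25-205, a processed transcript of 375 bases without a coding annotation, with 63.9% in replicate 1 and 64.6% in replicate 2. By counts the coding transcript Snrnp25-201 led instead, with 58.2% in replicate 1 and 61.9% in replicate 2.

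Rhbdf1 encodes iRhom1, a rhomboid relative without protease activity that escorts the sheddase ADAM17 to the cell surface. It was at 2.07 TPM in replicate 1 and 0.90 TPM in replicate 2, a ratio of 2.30, although its counts were 114 and 118. The length used for its TPM was 987.2 bases in replicate 1 and 1847 bases in replicate 2. Rhbdf1-202, of 708 bases and annotated as a target of nonsense-mediated decay, took 61.4% of the TPM in replicate 1 and 39.0% in replicate 2. The coding transcript Rhbdf1-201, of 2946 bases, took 19.2% in replicate 1 and 54.6% in replicate 2, while Rhbdf1-207 took 13.4% and 4.52% and Rhbdf1-204 took 5.01% and 0%. By counts Rhbdf1-201 led in both libraries, with 54.4% in replicate 1 and 82.8% in replicate 2. Rhbdf1-202 had 35.1% and 11.8% of the counts, and all of its 659 windows of 50 bases occur in another Rhbdf1 transcript. Over all annotated exons, where the length is the same in both libraries, Rhbdf1 was at 0.845 TPM in replicate 1 and 0.705 TPM in replicate 2.

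Il9r encodes the chain of the interleukin 9 receptor that binds the cytokine. It was at 2.52 TPM in replicate 1 and 4.06 TPM in replicate 2, from 233 and 446 counts, at percentile 15.4. The coding transcript Il9r-202 took 87.3% of the TPM in replicate 1 and 75.9% in replicate 2. The retained-intron transcript Il9r-203 took 6.35% in replicate 1 and 18.3% in replicate 2, and the longer coding transcript Il9r-205 took 2.83% and 5.73%.

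Levels of several genes depended on the length by which counts were divided. With the length of the first-numbered transcript of each gene, which for Il9r is annotated as a target of nonsense-mediated decay, Nprl3 was at 30.9 in replicate 1 and 32.0 in replicate 2, and Snrnp25 at 40.5 and 37.6, on the scale of TPM. With the length of all annotated exons Nprl3 was at 25.0 in replicate 1 and 26.4 in replicate 2, and Snrnp25 at 59.2 and 55.8. Nprl3 was thus above Snrnp25 only in the deposited TPM, by 1.84-fold in replicate 1 and 1.67-fold in replicate 2, and below it with either other length. Hba-a1 was at 2472 in replicate 1 and 2807 in replicate 2 with the length of its first-numbered transcript and was above Hba-a2 with all 3 lengths. All 3 divide the same assigned counts, so this order does not test how reads were divided between the copies. The log2 ratio of adult alpha-globin to Nprl3 was 7.83 with the length of all exons and 6.96 with that of the first-numbered transcripts, against 5.49 in deposited TPM, so the size of this ratio rests on the transcript assignment.

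**Figure D4:**
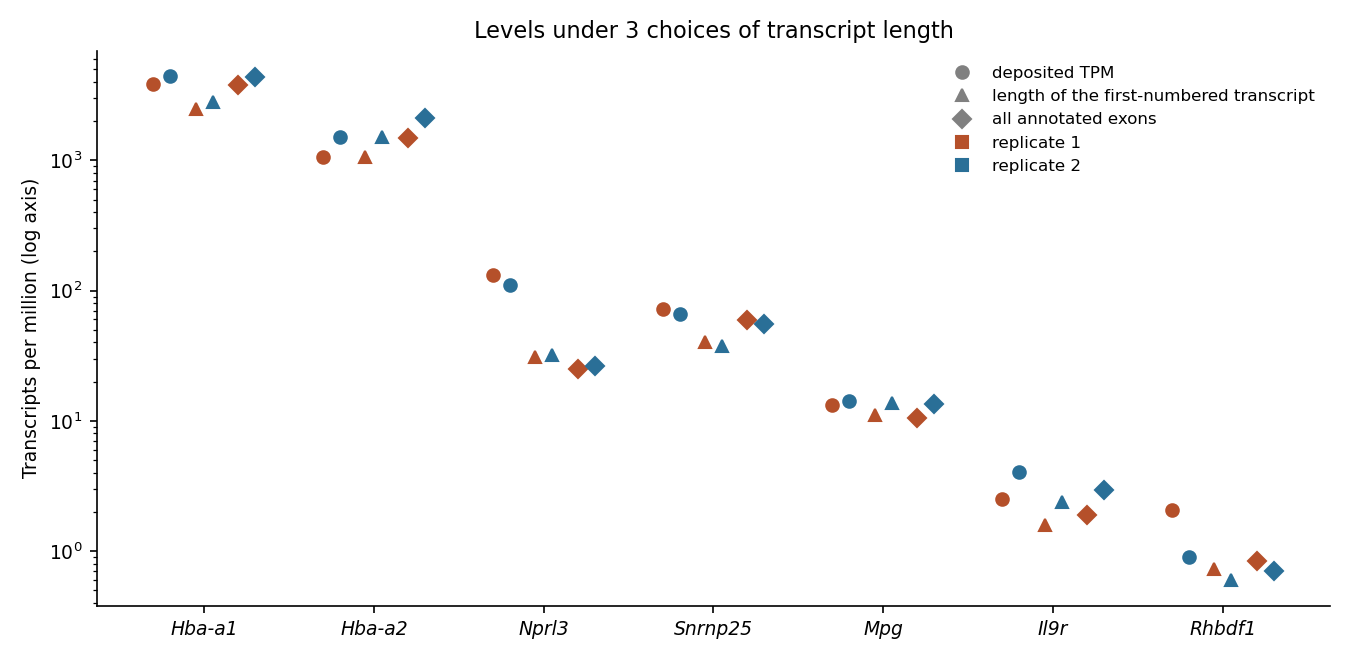
Levels of the 6 genes at 1 TPM or more and of Rhbdf1, on the scale of TPM and a log axis, with counts divided by the deposited length (circles), by the length of the first-numbered transcript (triangles) or by all annotated exons (diamonds), replicate 1 in red and replicate 2 in blue. Nprl3 falls below Snrnp25 with either of the other lengths, and the globins stay highest.

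The libraries were set against each other gene by gene with an exact binomial test, two-sided and conditional on each gene's total, run on expected counts. It knows counting error only and compares these libraries, not conditions. Ratios are replicate 1 over replicate 2. A gene was called at a Benjamini-Hochberg adjusted p under 0.05 and a difference of at least 2-fold. Of the 10 genes, 8 had the 10 counts needed for the test, and none of these 8 was called, against 5.62% of all tested genes (654 of 11636). Without the 2-fold requirement 7 of the 8 passed, all but Hbq1b, against 64.4% of all tested genes, and the same 7 had an unadjusted p under 0.05. With edgeR's exact test, which takes its dispersion from the same libraries, 114 genes (0.980% of those tested) were called and none of the 8.

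The differences in scaled counts were small. They were all within 2-fold, with log2 ratios from -0.44 for Il9r (exact test, adjusted p = 3.51e-04) to 0.63 for Hbq1b (exact test, adjusted p = 0.254). For Nprl3 the log2 ratio was 0.11, for Mpg -0.16, for Snrnp25 0.27 and for Rhbdf1 0.45. Hba-a2 had a log2 ratio of -0.34 (exact test, adjusted p = 3.43e-191) and Hba-a1 one of -0.02 (exact test, adjusted p = 0.0412). Summed to 1 gene, the adult copies had a log2 ratio of -0.10. The common biological coefficient of variation between the libraries was 0.224.

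Within 250 kb on either side 8 other genes are annotated, and 1 of them was at 1 TPM or more in both libraries, beside the 21.1% of all gene entries. This was Stk10, which encodes a kinase of lymphocytes, at 29.6 TPM in replicate 1 and 36.3 TPM in replicate 2, and it lies 232432 bases from the last globin gene. Ubtd2 had 16 counts in replicate 1 and 18 in replicate 2 and was at 0.33 and 0.29 TPM, and the other 6 had fewer than 10 counts in each library.

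Other genes flank the human alpha-globin genes on either side and have mouse homologues elsewhere, Polr3k on chromosome 2 and the rest on chromosome 17. Of 7 such genes, 6 were at 1 TPM or more in both libraries. Luc7l, which encodes a splicing protein, was at 40.5 TPM in replicate 1 and 46.5 TPM in replicate 2. Axin1, which encodes a scaffold of Wnt signalling, was at 42.8 TPM in replicate 1 and 46.0 TPM in replicate 2. Rgs11, Arhgdig, Fam234a and Polr3k had means of 32.3, 21.4, 3.20 and 2.30 TPM, and Pdia2 was at 0.18 TPM in replicate 1 and 0.19 TPM in replicate 2.

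The genes analysed that work with Nprl3 were all present, at lower deposited TPM than Nprl3. All 9 that were analysed here, of GATOR1, of the opposing GATOR2 complex and of the KICSTOR complex, were at 1 TPM or more in both libraries. Nprl2, the direct partner of Nprl3 in GATOR1, was at 1.35 TPM in replicate 1 and 1.75 TPM in replicate 2. Depdc5, the remaining GATOR1 subunit, was at 2.45 TPM in replicate 1 and 5.40 TPM in replicate 2. Its log2 ratio was -1.01 (exact test, adjusted p = 8.32e-45), close to the 2-fold limit. Of the 9 tested genes of this list it was the 1 called different, against 5.62% of all tested genes.

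The partners of Mpg and Snrnp25 were almost all expressed. Of 16 base excision repair genes 15 were at 1 TPM or more in both libraries, all but Neil2. None of the 16 was called, against 5.62% of all tested genes. Apex1, whose product cuts the site that a glycosylase leaves, had a mean of 192 ± 3.65 TPM (SD, n = 2), and Xrcc1, a scaffold of the repair, 156 ± 24.1 TPM (SD, n = 2). All 8 genes of the U11/U12 particle were at 1 TPM or more, with means from 10.3 TPM for Rnpc3 to 103.4 TPM for Zcrb1. None of these 8 was called, beside that same 5.62%.

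The partners of Rhbdf1 and Il9r were present in part. Of 10 genes listed for Rhbdf1, 6 were at 1 TPM or more, among them Adam17 at 22.4 TPM in replicate 1 and 21.2 TPM in replicate 2 and the paralogue Rhbdf2 at 4.74 and 4.19 TPM. The receptor gene Egfr and the ligand genes Areg and Ereg were at 0 in both libraries. The ligand gene Hbegf was called different at 0.17 TPM in replicate 1 and 0.07 TPM in replicate 2, on 21 and 11 counts (exact test, adjusted p = 0.0167). It was the 1 call among the 7 tested genes of this list, against 5.62% of all tested genes. For Il9r, 7 of 8 were at 1 TPM or more and none of the 7 tested was called, beside that same share. Il2rg, which encodes the shared receptor chain, was at 8.10 TPM in replicate 1 and 10.2 TPM in replicate 2, and the kinase gene Jak1 at 260.0 and 257.0 TPM. Il9, the ligand gene, was at 0 in both libraries.

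**Figure D5:**
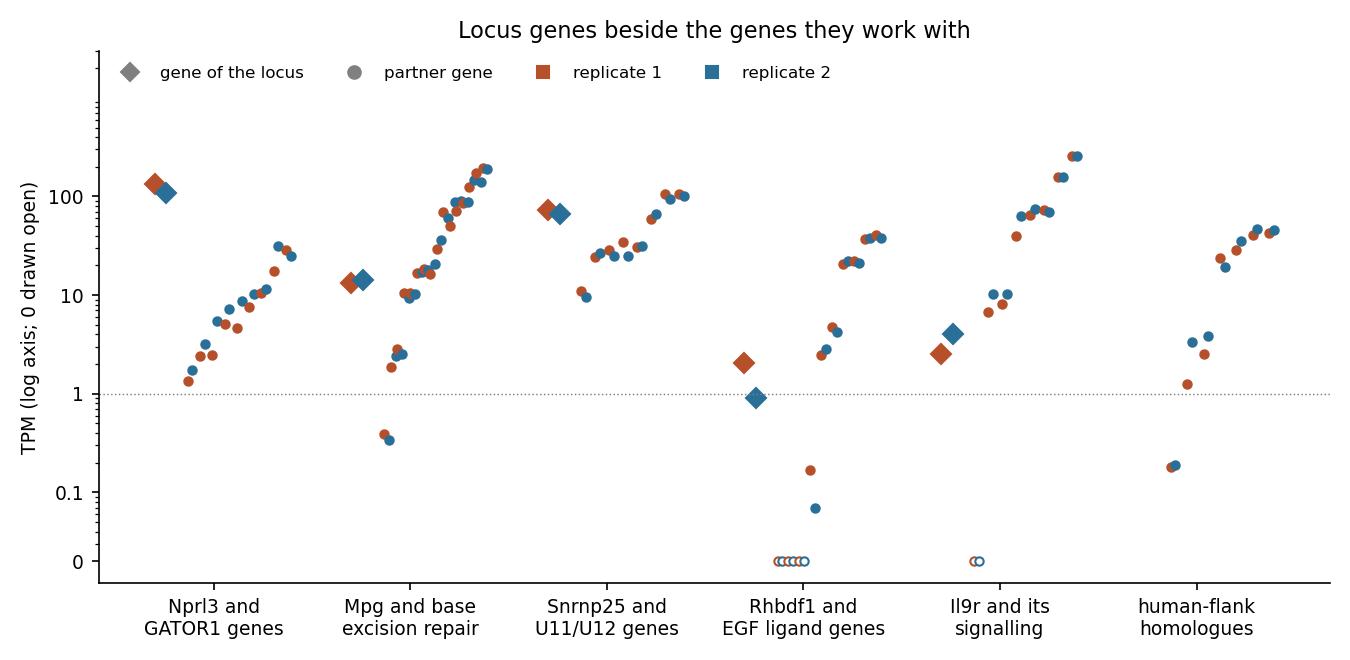
Levels in TPM on a log axis of 5 genes of the locus (diamonds), of the genes they work with (circles) and of homologues of the human flanking genes, with replicate 1 in red, replicate 2 in blue and 0 drawn open. In deposited TPM Nprl3 stands above all of the partners drawn beside it, Rhbdf1 and Il9r stand between 0.90 and 4.06 TPM, and the 3 genes at 0 beside Rhbdf1 are Egfr, Areg and Ereg.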

How the data were processed

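Gene and transcript tables were deposited for each library, made on mm10 with GENCODE M4 annotation from a transcriptome alignment, per the deposited descriptions. The sources used here do not give the aligner or the counter. The authors' expected counts are estimated read pairs. The deposited TPM and FPKM values are scaled by effective length and library total, and the deposited percent is the share of a gene's TPM on a transcript. The tables also hold the authors' posterior SD and the lower and upper bounds of TPM, entered here as a signal with no stated level. FPKM was not used further.

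Of 43346 entries, 42462 (98.0%) matched GENCODE M21, on the same assembly, by Ensembl identifier without version. Symbols, positions, transcript classes and sequences come from M21, and promoters from RefSeq. Counts were rounded and scaled with TMM (edgeR 4.0.16, R 4.3.3; factors 0.960 and 1.04). The exact binomial test (SciPy 1.17.1) was run on genes that reached 10 counts in either library. It was tried on counts simulated with known fold changes and counting error only. That trial therefore does not cover the wider spread between the real libraries. DESeq2 1.42.0 gave alternative size factors. A count of 0 allows up to 3 counts. Levels over all annotated exons divide each gene's counts by that length and scale to the total of TPM. Levels at the first-numbered transcript multiply the deposited TPM by the ratio of the deposited effective length to that transcript's. Sequence windows of 50 bases were compared over all transcripts in the tables.

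Named genes are the 10 genes of the locus, genes within 250 kb with 10 or more counts, human-flank homologues, pseudogenes and textbook partners. Named transcripts lead their gene or reach 5% of it, except where Nprl3 starts, coding transcripts or the retained-intron copies are described. The genes and lists were chosen with earlier results of these data known. Of the lists, 3 genes had no match and were not analysed here, and 1 is not reported here.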

Additional observations from a re-analysis of the deposited data

How the results depend on the processing

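The alternatives were other values of the deposited tables, other lengths, other thresholds, other scalings and tests, and each library alone. Dividing by all annotated exons gave a log2 ratio of adult alpha-globin to Nprl3 of 7.83, a Hba-a1 share of 69.6% and a median level of 7.20, and dividing by the first-numbered transcript, an alternative chosen after seeing the data, gave 6.96, 67.3% and 7.20, against 5.49, 76.4% and 8.52 in deposited TPM. In expected counts the Hba-a1 share was 73.6%, an alternative also chosen after seeing the data. By expected counts Nprl3-208 took 53.2% of Nprl3 against 77.7% of TPM. Without Hba-a1 and Hba-a2 the median level was 2.39. With no fold requirement 7 of the 8 tested genes of the locus were called different in place of 0. The share of all tested genes called was then 64.4% in place of 5.62%. The number of genes detected was 7 with posterior mean TPM, 8 at 0.5 TPM and 5 at 5 TPM, against 6. In replicate 1 alone and in replicate 2 alone the log2 ratio was 5.22 and 5.77, the Hba-a1 share 78.4 and 74.5%, the Nprl3-208 share 85.5 and 69.8%, the median 7.86 and 9.18, and the genes detected 7 and 6. The calls stayed at 0 with DESeq2 size factors, total counts, a minimum of 1 or 50 counts, edgeR's exact test and the copies summed. Of all tested genes these settings called 5.54%, 6.60%, 4.10%, 4.16%, 0.980% and 5.62%, in that order. No paired analysis was possible because there was 1 group. Hbq1b, with 23 and 21 counts, and Hba-x, with 0 and 4, were limited by depth.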
